A study of Mus musculus with 6 samples.

Results

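Pleiotrophin, midkine, the coreceptor syndecan 3 and receptor-type protein tyrosine phosphatases were followed in the postnatal day 7 mouse cortex. The 10 genes (Ptn, Mdk, Sdc3, Ptprz1, Ptprg, Ptprd, Ptprs, Ptprf, Ptprk and Ptprm) were taken by symbol from a table of 24972 genes, and all 10 were found and passed the filter on low values. The set was selected on the normalized counts of this same table, with the comparison of genotypes already known. Their differences between genotypes are therefore a description, and so is whether a gene passed the threshold of the fit over all genes, which is no independent evidence of a difference. RNA came from dissected cortex, with 3 libraries from wildtype mice (Zmiz1f/f) and 3 labelled Zmiz1-KO (Zmiz1f/f;Emx1Cre; called KO-labelled here), so mice of both groups carried the floxed Zmiz1 alleles and Cre was carried by the second group. Emx1 drives Cre in progenitors of the dorsal telencephalon, whose descendants are excitatory neurons and part of the glia of the cortex, while interneurons, microglia and vessels arise elsewhere. Whether a library came from 1 animal is not stated in the sources used here, and p-values measure the spread between these libraries.

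Pleiotrophin and midkine are the members of a small family of secreted heparin-binding growth factors. They bind the chondroitin sulfate chains of PTPζ, the product of Ptprz1, and lower its phosphatase activity, so that tyrosine phosphorylation of its substrates rises. Syndecan 3 carries heparan sulfate, binds pleiotrophin and relays neurite outgrowth. Ptprz1 is transcribed in radial glia, astrocytes and oligodendrocyte precursors, and one of its isoforms is the secreted proteoglycan phosphacan. Ptprg is its closest relative and binds contactins. Ptprd, Ptprs and Ptprf form the LAR type, presynaptic organizers that bind postsynaptic adhesion proteins and glycan chains, and Ptprk and Ptprm are adhesion receptors that bind copies of themselves on neighboring cells.

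The promoters of the ligand, of its main receptor and of its coreceptor are shown, since the first pair were lower together in the KO-labelled libraries and the third was not. Each window runs from 250 bases before to 50 bases after the RefSeq start on GRCm38.p6, read 5′ to 3′ on the strand of the gene. The Ptn window is chr6:36810130-36810429 on the minus strand, that of Ptprz1 is chr6:22875252-22875551 on the plus strand, and that of Sdc3 is chr4:130792287-130792586 on the plus strand. Capitals mark GGGCGG (the GC box) and CCAAT on either strand.
Ptn: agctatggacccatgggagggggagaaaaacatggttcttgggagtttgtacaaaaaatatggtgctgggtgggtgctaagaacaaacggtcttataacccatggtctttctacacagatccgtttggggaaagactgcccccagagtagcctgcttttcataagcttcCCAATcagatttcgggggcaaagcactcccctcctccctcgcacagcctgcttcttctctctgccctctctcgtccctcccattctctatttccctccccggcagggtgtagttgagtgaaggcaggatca
Ptprz1: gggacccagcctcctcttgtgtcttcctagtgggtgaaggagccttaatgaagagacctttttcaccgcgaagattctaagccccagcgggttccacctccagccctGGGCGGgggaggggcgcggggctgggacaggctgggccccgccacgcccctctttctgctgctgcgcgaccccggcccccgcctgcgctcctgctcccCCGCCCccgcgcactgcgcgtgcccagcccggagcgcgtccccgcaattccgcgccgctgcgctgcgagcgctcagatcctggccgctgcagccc
Sdc3: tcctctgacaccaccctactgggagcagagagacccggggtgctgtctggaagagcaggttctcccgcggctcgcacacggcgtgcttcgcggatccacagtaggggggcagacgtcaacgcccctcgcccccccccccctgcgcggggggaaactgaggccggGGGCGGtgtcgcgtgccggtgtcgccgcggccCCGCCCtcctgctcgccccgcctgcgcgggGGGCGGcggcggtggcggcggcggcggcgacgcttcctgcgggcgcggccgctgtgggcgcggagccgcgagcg
These windows differed in composition. That of Ptn held 52.0% G and C and 6 CpG dinucleotides, near the medians of 52.7% and 7 over all 32851 promoters of the RefSeq table. That of Ptprz1 held 71.7% G and C and 29 CpG, and that of Sdc3 77.7% and 44. CCAAT occurred once in the Ptn window and in neither of the other two, and it is found in 37.4% of all promoters. GGGCGG occurred 2 times in the Ptprz1 window, 3 times in that of Sdc3 and not in that of Ptn, against 35.7% of all promoters with at least 1. CANNTG (the E-box, in 72.3% of promoters), TGANTCA (AP-1, 7.81%), ATGCAAAT (the octamer, 1.74%) and TATAAA (13.6%) were found in none of the 3 windows. All motifs were searched on both strands, and a match is a description of the letters. Of the 10 genes, 8 had an entry in the table, with Mdk and Ptprd lacking one.

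Values are normalized counts, that is, reads per gene divided by factors of DESeq2, and they were compared as log2(value + 1) by limma over the 15800 genes that reached 10 normalized counts in 3 or more libraries. Depth was estimated from the sum of a library over its commonest low value, taken as 1 counted unit, at 15495006 to 17858811 units. Whether a unit is 1 read or a pair of reads counted together was not determined. The targeted gene went against its label, since Zmiz1 had 7461 to 8119 normalized counts in wildtype and 9660 to 9944 in the KO-labelled libraries (log2 fold change 0.32, limma adjusted p = 0.00125). Every direction given here follows the labels and would turn if they were exchanged. The table has no values by exon, so transcripts without the floxed part cannot be told apart. Xist was at 25307 in wildtype replicate 3, at 24403 in KO-labelled replicate 2 and at or under 57.3 in the others, so each group holds 1 female library. Markers of excitatory neurons summed to 62128 to 67262 in wildtype and 63653 to 65732 in the other group. Of these 8 markers, 6 were lower and 2 higher, with a median log2 fold change of -0.09 and none past the threshold. The groups lay apart for 2 of the 8, 1 lower and 1 higher, against 16.3% of all tested genes. In bulk tissue, fewer cells of a type and less RNA per cell cannot be told apart.

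At this age the ligand and its coreceptor stood far above the phosphatases per length. In wildtype, Sdc3 had 5928 ± 60.0 normalized counts per kb of merged exons (SD, n = 3) and Ptn 5753 ± 220, and the ranges of these neighbors overlapped. Ptprs followed with 1570 ± 15.4, Ptprz1 with 1367 ± 49.6 and Ptprf with 875 ± 20.0 normalized counts per kb, each apart from the next. Ptprg (372 ± 18.1), Mdk (354 ± 31.7), Ptprk (353 ± 38.0) and Ptprd (353 ± 21.2) overlapped one another, and Ptprm was lowest with 164 ± 5.45 normalized counts per kb. The lower part of this order depends on the length used. Per kb of the longest coding transcript, Ptprd had 813 ± 48.9 normalized counts (SD, n = 3) and Ptprk 762 ± 82.0, above Mdk (445 ± 39.9) and Ptprg (444 ± 21.6), and Ptn (7721 ± 296) came before Sdc3 (7139 ± 72.2). The 5 genes of highest level were the same by both lengths.

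**Figure D1:**
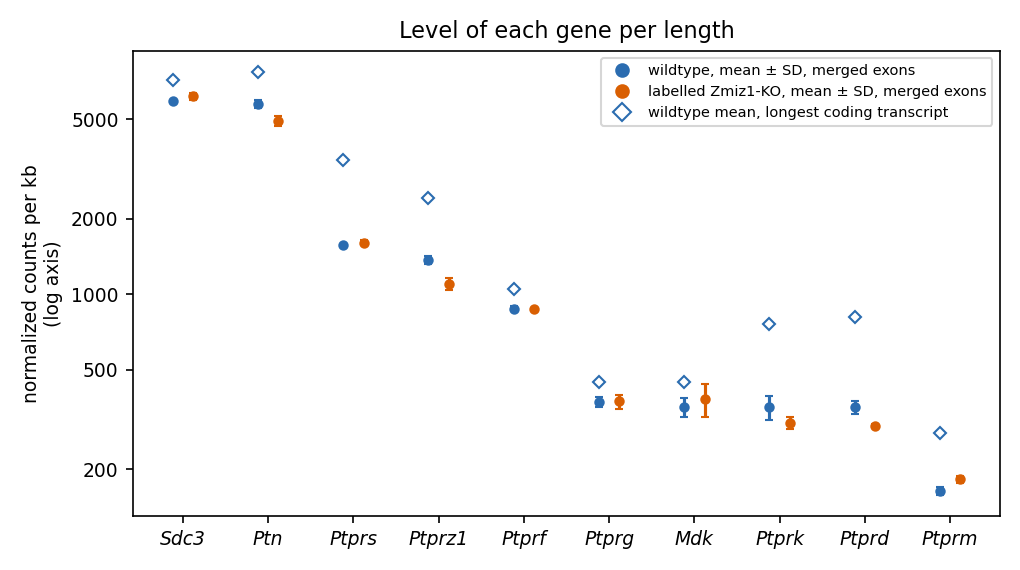
Normalized counts per kb of each gene on a log axis, in order of the wildtype level. Filled points are means with SD (n = 3) per kb of merged exons in wildtype (blue) and in the KO-labelled libraries (orange), and open diamonds are wildtype means per kb of the longest coding transcript, which lie furthest above the points for Ptprd, Ptprs and Ptprk.

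Pleiotrophin was lower in the KO-labelled libraries and midkine was not. The gene lies on chromosome 6 (Ptn, GRCm38, bases 36714929 to 36810220), and wildtype replicates 1, 2 and 3 held 20617, 19230 and 19401 normalized counts. In the KO-labelled libraries it had 16855, 17710 and 16125. All values of the second group lay below the lowest wildtype value, and its mean was 85.6% of the wildtype mean, 19749 ± 756 against 16896 ± 793 (SD, n = 3 per group). The log2 fold change came to -0.23, with a standard error (SE) of 0.041. Mdk (chromosome 2, bases 91929805 to 91932297) had 435, 516 and 457 normalized counts in wildtype and 447, 476 and 589 in the other group. These values overlapped, with the highest in KO-labelled replicate 3, and the log2 fold change was 0.10 (SE 0.11). It became -0.02 without that replicate. Per kb of merged exons, Mdk made up 5.18, 6.51 and 5.76% of the summed level of both ligands in wildtype, and 6.44, 6.51 and 8.66% in the KO-labelled libraries. The difference of Ptn between the group means, 831 normalized counts per kb, exceeded the whole Mdk level of either group.

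The coreceptor did not follow the ligand. Sdc3 (chromosome 4, bases 130792537 to 130826319) had 35577, 35110 and 35815 normalized counts in wildtype and 37885, 35588 and 37356 in the KO-labelled libraries. Replicate 2 labelled Zmiz1-KO lay within the wildtype range and the other two above it, with a log2 fold change of 0.06 (SE 0.034). The ratio of Sdc3 to Ptn within a library was 1.73, 1.83 and 1.85 in wildtype and 2.25, 2.01 and 2.32 in the other group, so the groups did not overlap in it. Of the merged exon bases of Sdc3, 7.73% overlap genes on the opposite strand, and the library kit does not mark strand.

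Among the phosphatases the largest difference was that of the pleiotrophin receptor. Ptprz1 (chromosome 6, bases 22875502 to 23052916) had 19622, 20102 and 18710 normalized counts in wildtype. It had 15429, 16592 and 14852 in the KO-labelled libraries. The groups were separated by 2118 normalized counts, and the mean was 80.2% of wildtype, with 19478 ± 707 against 15624 ± 886 (SD, n = 3 per group). The log2 fold change came to -0.32, with a standard error of 0.043. Within a library, the ratio of Ptprz1 to Ptn was 0.952, 1.05 and 0.964 in wildtype and 0.915, 0.937 and 0.921 in the other group. Receptor and ligand were thus lower by similar amounts, with the receptor a little more so. Its relative Ptprg (chromosome 14, bases 11553532 to 12242041) showed no such difference, with 4080, 4295 and 3897 normalized counts in wildtype and 3966, 4404 and 3944 in the KO-labelled libraries. The groups overlapped nearly completely, and the log2 fold change of 0.00 (SE 0.051) changed sign in some of the alternatives. The ratio of Ptprz1 to Ptprg was 4.81, 4.68 and 4.80 in wildtype and 3.89, 3.77 and 3.77 in the other group. This ratio varied less between replicates than either gene did. The table gives 1 value per gene, so the receptor and the secreted phosphacan form of Ptprz1 cannot be told apart.

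**Figure D2:**
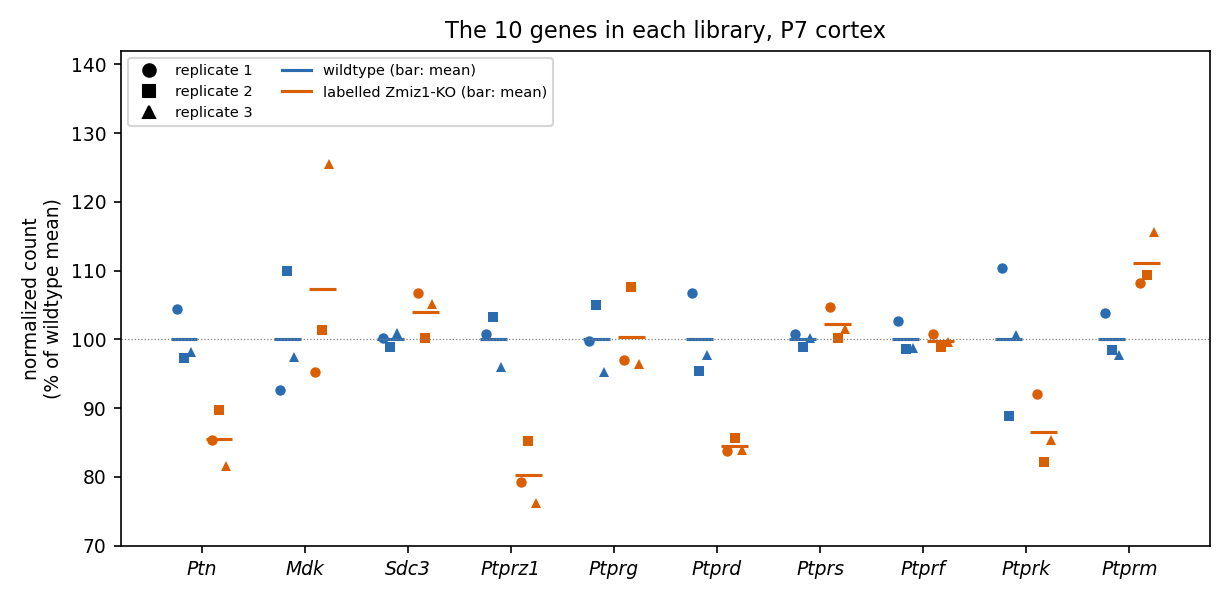
Normalized count of each gene in each library as a percentage of its wildtype mean, with wildtype in blue, KO-labelled libraries in orange, replicates by shape and bars at the group means. The orange points of Ptn, Ptprz1 and Ptprd lie below all blue points, and those of Ptprm above them.

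The LAR-type genes did not move together. Ptprd (chromosome 4, bases 75941238 to 78211961) had 8600, 7683 and 7871 normalized counts in wildtype and 6740, 6901 and 6759 in the KO-labelled libraries. All of the second group lay below wildtype, at a mean of 84.5% of it and with a log2 fold change of -0.24 (SE 0.044). Ptprs (chromosome 17, bases 56412426 to 56476483) had 23732, 23279 and 23579 normalized counts in wildtype and 24642, 23595 and 23904 in the other group. These overlapped, with a log2 fold change of 0.03 (SE 0.034). Ptprf (chromosome 4, bases 118208213 to 118291405) had 8220, 7894 and 7912 normalized counts in wildtype and 8074, 7919 and 7983 in the other group. Its values overlapped fully and the log2 fold change was 0.00 (SE 0.037). Ptprd and Ptprf stood at like normalized counts in wildtype, with ratios of Ptprd to Ptprf of 1.05, 0.973 and 0.995, and parted in the KO-labelled libraries, with ratios of 0.835, 0.871 and 0.847. Ptprs made up most of the type, and its mean was slightly higher in the KO-labelled libraries, opposite to Ptprd. The sum of the 3 genes differed little. It was 39590 ± 870 normalized counts in wildtype and 38839 ± 547 in the other group (SD, n = 3 per group).

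The adhesion phosphatases lay on opposite sides. Ptprk (chromosome 10, bases 28074820 to 28597397) had 5196, 4184 and 4740 normalized counts in wildtype and 4332, 3870 and 4021 in the KO-labelled libraries. Wildtype replicate 2 lay below KO-labelled replicate 1, so the groups overlapped, and Ptprk had the widest wildtype spread of the 10 genes, a coefficient of variation of 10.8%. Its log2 fold change was -0.20 (SE 0.077), and it ran from -0.13 without wildtype replicate 1 to -0.29 without wildtype replicate 2, where alone among the left-out libraries it passed the threshold. Ptprm (chromosome 17, bases 66666947 to 67354457) had 1501, 1423 and 1414 normalized counts in wildtype and 1564, 1581 and 1673 in the other group. All of the second group lay above wildtype, by a gap of 62.6 normalized counts, with a log2 fold change of 0.15 (SE 0.054). Of the merged exon bases of Ptprm, 5.18% overlap another gene on the same strand, and 4.23% of its 75-base stretches occur in transcripts of that gene. The ratio of Ptprk to Ptprm was 3.46, 2.94 and 3.35 in wildtype and 2.77, 2.45 and 2.40 in the KO-labelled libraries.

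In the fit over all genes, 3 of the 10 (Ptn, Ptprz1 and Ptprd) had an adjusted p at or under 0.05, all of them lower, where 0.411% of all tested genes did in either direction, 0.247% lower and 0.165% higher. With the threshold at 0.1 there were again 3, against 0.671% of all tested genes. Values of the groups lay fully apart for 4 of the 10, the same 3 and Ptprm, against 16.3% of all tested genes (8.16% lower and 8.1% higher). These counts follow from the choice of genes and nothing is read from them. The median log2 fold change of the 10 was 0.00, like that of all tested genes. The 7 phosphatases summed to 69311 ± 1467 normalized counts in wildtype and 64248 ± 965 in the KO-labelled libraries (SD, n = 3 per group). Ptprz1 passed the threshold with each library left out in turn, with log2 fold changes of -0.36 to -0.28. Ptn passed it without wildtype replicate 2 and without KO-labelled replicate 2 (-0.24 and -0.26). It did not pass without wildtype replicates 1 (-0.19) or 3 (-0.24), nor without KO-labelled replicates 1 (-0.22) or 3 (-0.19). Ptprd did not pass without wildtype replicate 1 (-0.19), nor without KO-labelled replicates 1 (-0.24) or 3 (-0.24). With only the 2 libraries of low Xist in each group, an alternative chosen after seeing the data, the same number of the 10 genes passed, 3.

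**Figure D3:**
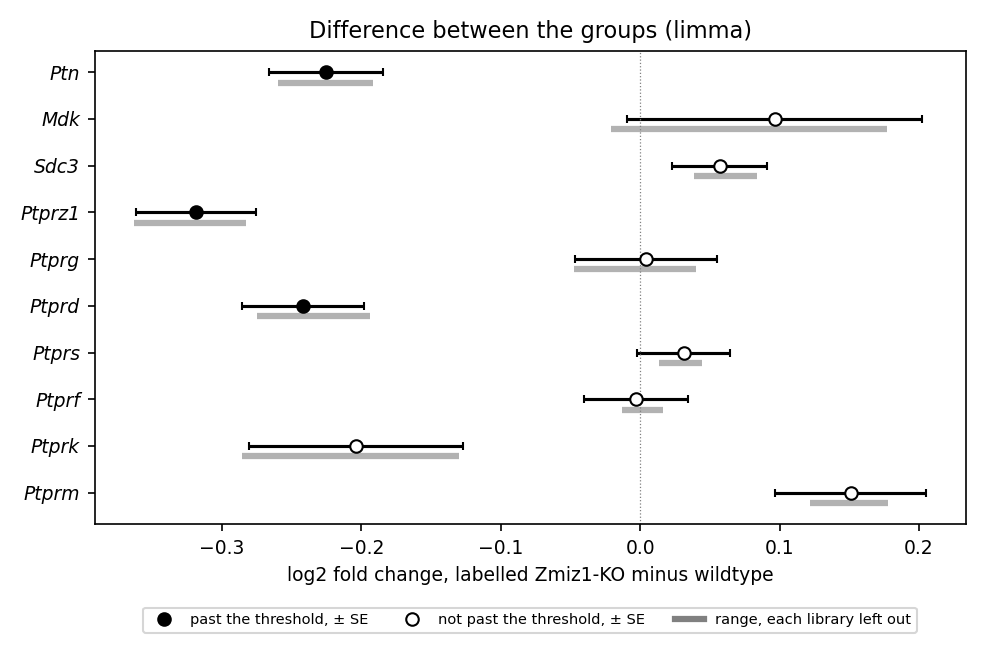
Log2 fold change of each gene, KO-labelled libraries minus wildtype, with its standard error from limma, and below it in grey the range with each library left out in turn. Filled points mark the 3 genes past the threshold, of which Ptprz1 is the lowest at -0.32, while the grey ranges of Mdk, Ptprg and Ptprf cross 0.

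Ptn and Ptprz1 are strongly transcribed in glia, so the glial markers are given beside them. Of 8 markers of oligodendrocyte precursors, 6 were lower and 1, Olig1, passed the threshold, which fell by 0.32 on the log2 scale (p adjusted in limma = 0.00173), with 4673 ± 143 normalized counts in wildtype and 3730 ± 105 in the other group (SD, n = 3 each). The 8 markers summed to 18287 to 19226 normalized counts in wildtype and 16301 to 16772 in the KO-labelled libraries, without overlap. Groups lay apart for 5 of the 8, 4 of them lower and 1 higher, against 16.3% of all tested genes. By limma, 5 had an unadjusted p under 0.05. Pdgfra, the receptor that defines these precursors, had a log2 fold change of -0.13 and Sox10 one of -0.01 (p adjusted in limma = 0.271 and 0.985). Both were named after their values were seen, and the groups lay apart in Pdgfra but not in Sox10. Of 10 astrocyte markers, 8 were lower and 1, the water channel gene Aqp4, fell past the threshold, by 0.29 on the log2 scale (p adjusted in limma = 0.00499; 0.0506 and 0.0815 without KO-labelled replicate 1 or 3). Their sum ran from 75850 to 81578 normalized counts in wildtype and from 69798 to 78000 in the other group, with overlap. The largest part of it was Slc1a2, named after its values were seen. It ran from 27048 to 31168 in wildtype and from 24371 to 30236 in the other group, so this 1 gene weighs heavily in the overlap. Groups lay apart for 4 of the 10, 3 lower and 1 higher, and 4 had an unadjusted p under 0.05 by limma. As background for the lists, 1733 of the 15800 tested genes (11.0%) had an unadjusted p under 0.05 by limma. None of the 8 radial glia markers passed by limma, 2 of them having an unadjusted p under 0.05, and 7 were higher. Several lists of other cells moved with the groups as well. All 8 striatal markers and all 9 inhibitory markers were higher in the KO-labelled libraries, none past the threshold by limma, with 2 and 6 at an unadjusted p under 0.05. The striatal markers summed to 11158 to 15665 normalized counts in wildtype and 16473 to 18208 in the other group, and the inhibitory markers to 18278 to 22587 and 23700 to 25503. All 8 meningeal markers were higher, 5 of them at an unadjusted p under 0.05, and Col1a2 passed the threshold (log2 fold change 0.32, limma adjusted p = 0.00464; 0.0683 without KO-labelled replicate 3). Values of the groups lay apart, always higher, for 5 of the 8 striatal, 3 of the 9 inhibitory and 5 of the 8 meningeal markers. The same held for 3 of the 8 radial glia markers, against 16.3% of all tested genes. The sums of microglial, vascular, oligodendrocyte and excitatory markers overlapped between the groups, and so did those of choroid plexus, with no call by limma and 7 of their 39 genes at an unadjusted p under 0.05. The part of these cell types in the lower Ptn, Ptprz1 and Ptprd was not tested.

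**Figure D4:**
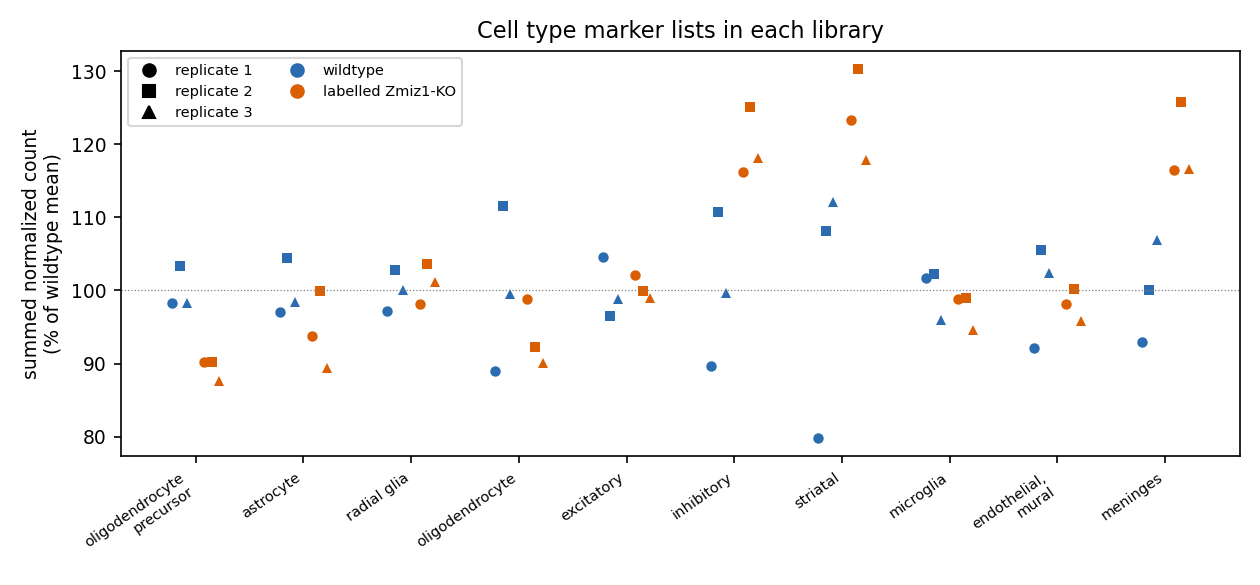
Summed normalized count of each marker list in each library as a percentage of its wildtype mean, with wildtype in blue and KO-labelled libraries in orange. The oligodendrocyte precursor sums of the second group lie below wildtype, its striatal, inhibitory and meningeal sums lie above, and the astrocyte sums overlap. Choroid plexus markers are left out, as they ranged from 396 to 8614 normalized counts within wildtype.

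Beyond the 10 genes, 1 of 96 others of the pathway passed the threshold, the Ptprz1 partner Tnc, and 17 of 96 had groups without overlap, against 16.3% of all tested genes. Tnc, tenascin C, is an extracellular matrix glycoprotein that binds phosphacan. It had 4122, 4194 and 4282 normalized counts in wildtype and 2687, 2630 and 2745 in the KO-labelled libraries. It fell by 0.64 on the log2 scale (SE 0.043, limma adjusted p = 2.86e-07). The other 15 partners of Ptprz1 had no call, among them the contactin Cntn1 and the substrates Git1 and Ctnnb1 (β-catenin). Ctnnb1 had 26652 ± 363 and 26577 ± 480 normalized counts (SD, n = 3 per group), and the scaffold Dlg4 (PSD-95) had a log2 fold change of 0.04. The median log2 fold change over the 16 partners was -0.03, and 12 were lower.

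Among 17 other proteins that bind pleiotrophin or midkine, with the other syndecans, none passed the threshold by limma and 3 had an unadjusted p under 0.05, against 11.0% of all tested genes. The groups lay apart for 5 of the 17, 1 lower and 4 higher, against 16.3% of all tested genes. The most abundant were Lrp1, an endocytic receptor of midkine, with 23138 ± 363 and 23646 ± 204 normalized counts (SD, n = 3 per group), and Cspg5 (neuroglycan C), with 16675 ± 245 and 17519 ± 200. Cspg5 lay higher in all KO-labelled libraries, with a log2 fold change of 0.07 (p adjusted in limma = 0.458). Alk, a receptor tyrosine kinase of both ligands named after its values were seen, had 306 and 343 normalized counts as means of the groups (p adjusted in limma = 0.569). It too lay higher in all KO-labelled libraries, and its level was low beside that of Ptprz1 in both groups. Of the 4 contactins that bind Ptprg, 3 were lower, and the groups lay apart in Cntn3 and Cntn4. Cntn3 had 1008 ± 67.4 and 851 ± 67.6 normalized counts (SD, n = 3 per group; log2 fold change -0.24, limma adjusted p = 0.216), and Cntn4, named after its values were seen, had 1020 ± 134 and 820.0 ± 66.6 (log2 fold change -0.31, limma adjusted p = 0.218). Cntn6 had a log2 fold change of 0.05. None passed by limma, and the same 2, Cntn3 and Cntn4, had an unadjusted p under 0.05, against 11.0% of all tested genes.

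The ligands of the LAR type, largely postsynaptic adhesion proteins, showed no call in 14 genes, of which 1 had an unadjusted p under 0.05 by limma. Lrrc4b (NGL-3) was the most abundant and had 8377 ± 143 and 8423 ± 414 normalized counts (SD, n = 3 per group). Lrfn5 had a log2 fold change of -0.04 (p adjusted in limma = 0.835). Of the 7 liprins and Trio, the cytoplasmic partners of this type, none passed by limma and 2 had an unadjusted p under 0.05. Ppfia3 had a log2 fold change of -0.02 and Trio of -0.09 (p adjusted in limma = 0.918 and 0.517). Thus within the LAR pathway the lower Ptprd stood beside partners without a call, though 10 of the 14 ligands and 5 of the 7 cytoplasmic partners were lower. The groups lay apart for 1 ligand, lower, and for 2 cytoplasmic partners, 1 lower and 1 higher, against 16.3% of all tested genes. Among the 13 other receptor phosphatases none passed by limma, 5 had an unadjusted p under 0.05 (11.0% of all tested genes did), and their median log2 fold change was 0.04. Ptprn2 and Ptprn, of dense core vesicles, were the most abundant, with log2 fold changes of -0.10 and 0.04 (p adjusted in limma = 0.295 and 0.780). The groups lay apart for 4 of the 13, 2 lower and 2 higher, against 16.3% of all tested genes. One of these was Ptpru, a relative of Ptprk and Ptprm named after its values were seen. It was higher in all KO-labelled libraries, as Ptprm was, with a log2 fold change of 0.14 (p adjusted in limma = 0.227).

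The enzymes that build and trim heparan and chondroitin sulfate, the chains to which pleiotrophin binds, had no call in 25 genes by limma, 2 of them with an unadjusted p under 0.05, against 11.0% of all tested genes. Their log2 fold changes ran from -0.15 to 0.15 with a median of 0.00. Ndst1, which starts the sulfation of heparan sulfate, had 8328 ± 273 and 8543 ± 189 normalized counts (SD, n = 3 per group). Sulf2, which removes sulfate from it outside the cell, had a log2 fold change of 0.11 (p adjusted in limma = 0.402).

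**Figure D5:**
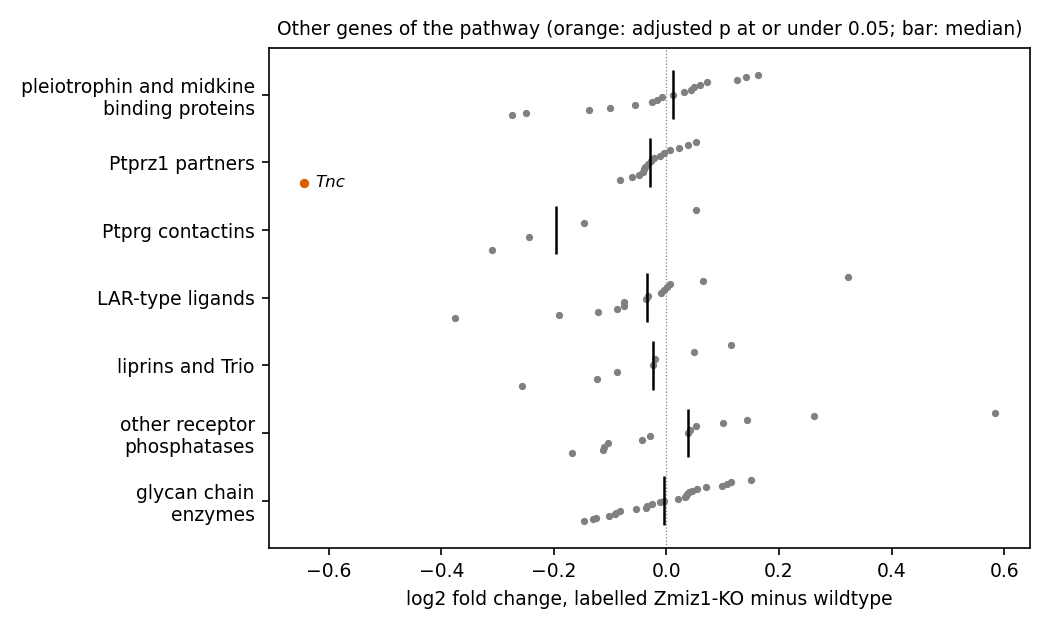
Log2 fold change of the other genes of the pathway by list, KO-labelled libraries minus wildtype, with 1 point per gene and a bar at the median of each list. Tnc, in orange at -0.64, is the one gene past the threshold among the 96.

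Over the 6 libraries and 10571 genes with a mean of at least 300 normalized counts, the patterns most like that of Ptprz1 were those of Mtf2, Zfp462, Chic2, Gosr1 and Adam22, with Pearson r of 0.988 to 0.996 on log2 values. Adam22 encodes a neuronal receptor of the LGI proteins. The patterns most like that of Ptn were those of Dio2, Arap2, 5730455P16Rik, Nfib and Flrt2, with r of 0.992 to 0.995. Dio2, the astrocytic deiodinase that makes active thyroid hormone, had 1793, 1527 and 1519 normalized counts in wildtype and 1161, 1239 and 1058 in the KO-labelled libraries. Its order of libraries was close to that of Ptn, with the highest value of each group in wildtype replicate 1 and in KO-labelled replicate 2. Among the 10 genes, r was 0.952 between Ptn and Ptprz1, 0.960 between Ptn and Ptprd, and 0.890 between Ptprz1 and Ptprd. With 6 libraries that share the group difference and this many genes compared, such values are a description.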

How the data were processed

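RNA was sequenced from postnatal day 7 cortex in 3 wildtype and 3 Zmiz1-KO libraries, grouped by their titles. The authors aligned reads to mm10 with STAR in Illumina BaseSpace, and the deposited values are a normalized signal from DESeq2, 1 per gene and library. The counter and annotation are not given in the sources used here. The commonest low value was sought only within a narrow range. It lay near 1.83 to 2.11 and varied slightly between genes of a library. Whole counts were therefore not recovered, and no count test was run in place of limma (version 3.58.1, R version 4.3.3). The depth of 15495006 to 17858811 estimated units, each 1 read or a pair of reads, and 3 libraries per group set the precision.

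Values were transformed to log2(value + 1) and fitted with an intensity trend and robust estimation, with two-sided p adjusted by the Benjamini-Hochberg method over 15800 genes and a threshold of 0.05. The smallest p of an exact permutation test with 3 libraries in each group is 0.1. The 10 genes and all gene lists were chosen with earlier results of these data known. From each list, genes past the threshold and the 2 most abundant of a pathway list were to be named, and for Ptn and Ptprz1 the 5 genes of highest Pearson r. Alk, Ptpru, Cntn4, Pdgfra, Sox10, Slc1a2, Cntn1 and Git1 were added after their values were seen. Lengths, coordinates and overlaps are from GENCODE M21 (GRCm38), and promoters from RefSeq. The procedure was tested on simulated data.

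The alternatives were other scalings, filters, pseudocounts (0.1 and 10), limma-voom, fits without robust estimation or trend, the replicate number as a block, Xist as a covariate and each library left out. Figures were drawn with matplotlib (version 3.10.9).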

Additional observations from a re-analysis of the deposited data

How the results depend on the processing

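The count of 65 genes past the threshold was 17 without robust estimation, 0 without the intensity trend (limma; 1396 genes at an unadjusted p under 0.05), 168 with the replicate number as a block, 146 with only the libraries of low Xist and 106 at an adjusted p of 0.1. With each library left out it ran from 12 to 151. Of the 10 genes, 3 passed, against 1 without robust estimation (Ptprz1), 0 without the trend, and 1 to 4 with each library left out. The 1 call of the pathway lists, Tnc, became 0 without the trend (limma adjusted p = 0.0719). The cause was not tested. Same-numbered libraries had correlations of -0.113 to -0.00509 between their deviations from the group means, and differently numbered ones of -0.0961 to 0.106. Deviations from the mean of 3 libraries depend on one another, so these values cannot tell whether the replicate numbers pair the libraries. The block added a call for Ptprk, making 4. The median log2 fold change of the 10 genes stayed between -0.04 and 0.01. Signs changed near 0 for Ptprf (0.00328 with upper-quartile scaling, 0.00289 with limma-voom), Ctnnb1 (0.00198 and 0.00163), and, with only the libraries of low Xist, Ptprg (-0.0819) and Ppfia3 (0.0244). With each library left out, log2 fold changes ran from -0.0131 to 0.0161 for Ptprf, -0.0475 to 0.0398 for Ptprg, -0.0212 to 0.177 for Mdk, -0.0152 to 0.0104 for Ctnnb1, -0.0502 to 0.0227 for Ppfia3, -0.0302 to 0.0403 for Lrrc4b and -0.0198 to 0.125 for Cntn6. Other small values kept their sign but moved in size, and ran from -0.286 to -0.13 for Ptprk, 0.0134 to 0.0447 for Ptprs, -0.117 to -0.0385 for Trio, 0.0714 to 0.165 for Sulf2, -0.0695 to -0.0017 for Lrfn5, 0.0119 to 0.0685 for Dlg4, 0.0121 to 0.0592 for Ndst1, 0.0219 to 0.0555 for Ptprn and 0.0207 to 0.0433 for Lrp1. DESeq2 and edgeR were not run, as the values are not counts. The limma-voom method is made for counts as well, so its fit to these normalized values is no count-based check.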
